A study of Mus musculus with 4 samples.

Results

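The genes described are 33 mouse genes of glycolysis and the hypoxia response, taken as a named list: 4 transporters of glucose and lactate, 17 glycolytic enzymes, 4 regulators of flux, and 8 genes of the hypoxia-inducible factor (HIF) pathway and its targets. All 33 were found among the 16338 rows of the expression tables, and all 33 passed the filter on low values, a mean of 1 normalized count or more, which 16102 genes passed. RNA sequencing compared mouse T cells with the receptor named TRP1high or TRP1low after 48 h with B cells that carried the peptide K8 or M9. TRP1, tyrosinase-related protein 1, is a pigment cell protein and a melanoma antigen, and the series title concerns CD8 T cells and how peptides bind MHC class I. The T cells were separated from the B cells by fluorescence-activated sorting before total RNA was prepared. Each of the 4 combinations of receptor and peptide was 1 library. The labels name no unstimulated T cells, strain, age or number of mice, and do not say whether the receptors were transgenic or transduced.

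Glycolysis splits glucose into pyruvate in the cytosol, and lactate dehydrogenase turns pyruvate into lactate, which leaves the cell through monocarboxylate transporters. T cells that divide after antigen contact are known to take up more glucose and to run this pathway even where oxygen is plentiful. HIF-1 is a transcription factor whose alpha subunit is marked for destruction by oxygen-dependent prolyl hydroxylases, and in T cells receptor signals also raise it. Many glycolytic genes are among its known targets.

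Groups of 4 values run in the order TRP1high K8, TRP1high M9, TRP1low K8, TRP1low M9. Levels are the deposited log2(normalized count + 1) values, and a difference of 1 on that scale is 2-fold. A peptide difference is M9 minus K8, and a receptor difference is TRP1high minus TRP1low. Each group being 1 library, the spread among replicate cultures is unknown and no p-value is given. Fold values are ratios of normalized counts, and the 95% exact interval beside one covers counting error only. A gene was counted as 2-fold apart if the log2 values differed by at least 1 and at least 1 library of the pair held 10 normalized counts. The libraries held 40.5, 41.5, 29.6 and 40.3 M estimated reads. The 8 T cell markers had a log2 summed level of 17.04, 17.32, 17.19 and 17.13, though single markers moved apart. Cd8a stood at 14.33, 14.80, 15.14 and 14.82, and Cd3e, a chain of the receptor complex, at 12.72, 13.35, 11.92 and 12.34.

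The library of TRP1low with K8 stood apart in other ways than depth. Its 4 measured erythroid markers summed to 582 normalized counts, against 3.18, 9.46 and 3.62 in the others, and Hba-a2 was at 0 in those 3. Its 9 measured myeloid or dendritic markers summed to 262 normalized counts, against 79.0, 127 and 85.1. Of 7 genes typical of resting T cells, the median level against the mean of the other 3 libraries was 0.24, -0.68, 1.11 and -0.79 (log2). S1pr1, the receptor by which resting T cells leave lymph nodes, was at 8.75, 7.05, 11.35 and 7.13, and Klf2, a transcription factor of quiescent T cells, at 9.20, 7.98, 10.03 and 7.89. Lef1, a transcription factor of naive T cells, did not follow them, at 11.35, 11.05, 10.89 and 10.09. The 10 B cell markers summed to a log2 level of 10.90, 7.30, 9.97 and 8.43, lower with M9 for both receptors, and Pax5 and Cr2 were at 0 in TRP1high with M9. Some of these markers, though not all, move with the results below, and the part of any of them in those results was not tested. Because this is bulk RNA, fewer cells with a transcript and less of it per cell cannot be told apart.

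The 33 genes together were lowest in TRP1low with K8. They held 2.23% of the estimated reads in TRP1high with K8 (95% Wilson interval 2.225 to 2.235), 2.63% in TRP1high with M9 (2.623 to 2.633), 1.38% in TRP1low with K8 (1.372 to 1.381) and 1.97% in TRP1low with M9 (1.968 to 1.976). The 17 enzymes made up most of this, at 2.08% (2.074 to 2.082), 2.44% (2.438 to 2.447), 1.28% (1.273 to 1.281) and 1.81% (1.802 to 1.811). For 29 of the 33 genes the lowest value was that of TRP1low with K8, while 31.6% of all tested genes were lowest there. The 4 others were Slc2a3 and Ldha, lowest in TRP1high with K8, and Pdk1 and Pfkfb2, lowest in TRP1high with M9 and highest in TRP1low with K8. The highest library was TRP1high with M9 for 19 genes (24.2% of all genes) and TRP1low with M9 for 9 (22.2%).

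**Figure D1:**
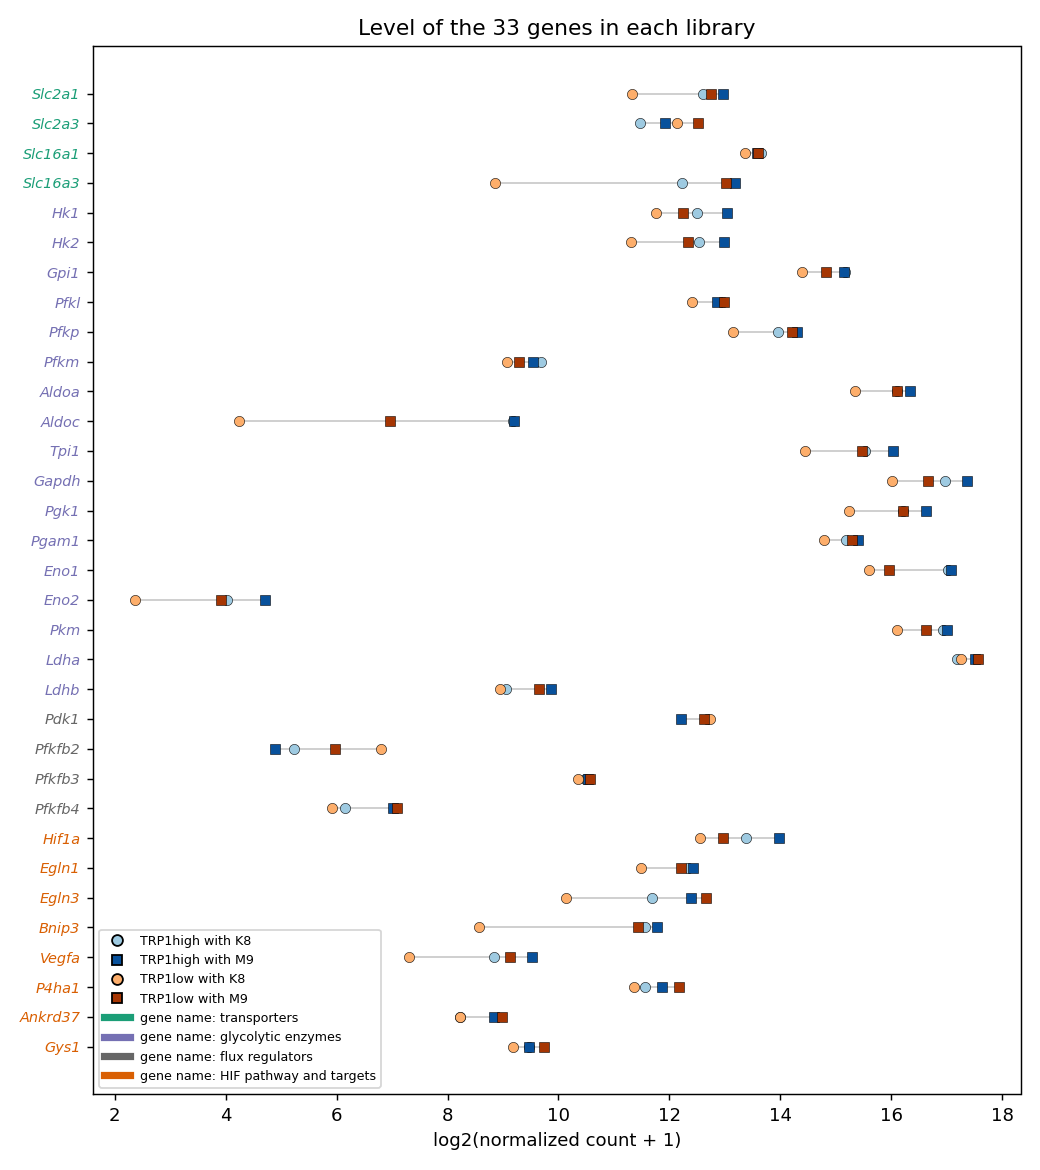
Level of each of the 33 genes on the log2(normalized count + 1) axis, 1 point per library (circles K8, squares M9, blue TRP1high, orange TRP1low), with a grey line from the lowest to the highest library and gene names coloured by role. The pale orange circle of TRP1low with K8 is the leftmost point for 29 of 33 genes, far to the left for Slc16a3, Aldoc and Bnip3, and rightmost for Pdk1 and Pfkfb2.

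Promoter sequences are given for 5 genes: the 3 with the largest peptide differences for TRP1low among the HIF targets and transporters (Slc16a3, Bnip3 and Egln3), Vegfa as the textbook HIF target, and Slc16a1 as the lactate transporter that hardly differed. Each is the 250 bases just before a start site in RefSeq (GRCm38.p6), read 5′ to 3′ along the gene's strand. Capitals mark matches to the core of the HIF binding motif, ACGTG or GCGTG on either strand, with the palindrome CACGTG, the E-box also bound by MYC, counted as 1 match. The windows lie at chr11:120948817-120949066 (+ strand) for Slc16a3, chr7:138909507-138909756 (- strand) for Bnip3, chr12:54203875-54204124 (- strand) for Egln3, chr17:46032378-46032627 (- strand) for Vegfa and chr3:104638414-104638663 (+ strand) for Slc16a1.
Slc16a3: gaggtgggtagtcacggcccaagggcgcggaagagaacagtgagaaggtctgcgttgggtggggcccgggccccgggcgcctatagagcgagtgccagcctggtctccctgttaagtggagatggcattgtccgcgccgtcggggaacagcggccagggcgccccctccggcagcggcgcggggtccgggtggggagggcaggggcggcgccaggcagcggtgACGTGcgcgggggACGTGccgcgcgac
Bnip3: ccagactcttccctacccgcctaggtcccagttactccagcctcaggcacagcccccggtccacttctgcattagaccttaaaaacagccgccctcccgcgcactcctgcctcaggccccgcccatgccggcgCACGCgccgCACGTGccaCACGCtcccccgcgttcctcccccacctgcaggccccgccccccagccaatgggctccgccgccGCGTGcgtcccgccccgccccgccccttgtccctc
Egln3: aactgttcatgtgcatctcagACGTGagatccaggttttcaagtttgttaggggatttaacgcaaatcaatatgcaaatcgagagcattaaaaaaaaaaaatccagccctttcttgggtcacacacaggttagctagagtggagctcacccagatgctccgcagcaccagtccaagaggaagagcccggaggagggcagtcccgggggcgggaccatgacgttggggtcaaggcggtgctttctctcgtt
Vegfa: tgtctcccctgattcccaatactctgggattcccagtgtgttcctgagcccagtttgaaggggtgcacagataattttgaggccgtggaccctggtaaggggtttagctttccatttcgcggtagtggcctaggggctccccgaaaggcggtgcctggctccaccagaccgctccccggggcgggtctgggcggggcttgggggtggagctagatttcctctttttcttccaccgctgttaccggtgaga
Slc16a1: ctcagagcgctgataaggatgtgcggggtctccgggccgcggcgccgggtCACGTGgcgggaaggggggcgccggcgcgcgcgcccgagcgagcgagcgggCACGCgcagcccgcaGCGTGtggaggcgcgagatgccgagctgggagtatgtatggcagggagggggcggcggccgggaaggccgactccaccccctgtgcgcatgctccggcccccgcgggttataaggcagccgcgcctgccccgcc
The Slc16a3 window held 2 matches, at 27 and 14 bases before the start. The Bnip3 window held 4 matches, 1 of them an E-box, the Egln3 window 1 and the Vegfa window 0, while a downstream start of Vegfa that RefSeq also lists had 2. Slc16a1, with a peptide difference of at most 0.22 log2 units, held 3 matches. Because 4 of these 5 genes were chosen by their differences, whether matches go with the size of a difference was not tested.

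Over all 48 listed windows of 32 of the genes, 38 (79.2%) held at least 1 match, against 38.6% of 32851 windows of the same length across the genome. At least 2 matches stood in 43.8% of the windows of these genes and in 13.5% of all windows, and an E-box in 14.6% and 6.02%. The windows of these genes were also richer in G and C, with a median of 60.4% against 52.4%, and had a median of 13.5 CpG pairs against 6. Of all 7352 windows with a CpG number like theirs (the middle 50% of their range), 57.6% held a match. A match is a stretch of letters and was not measured as a binding site.

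**Figure D2:**
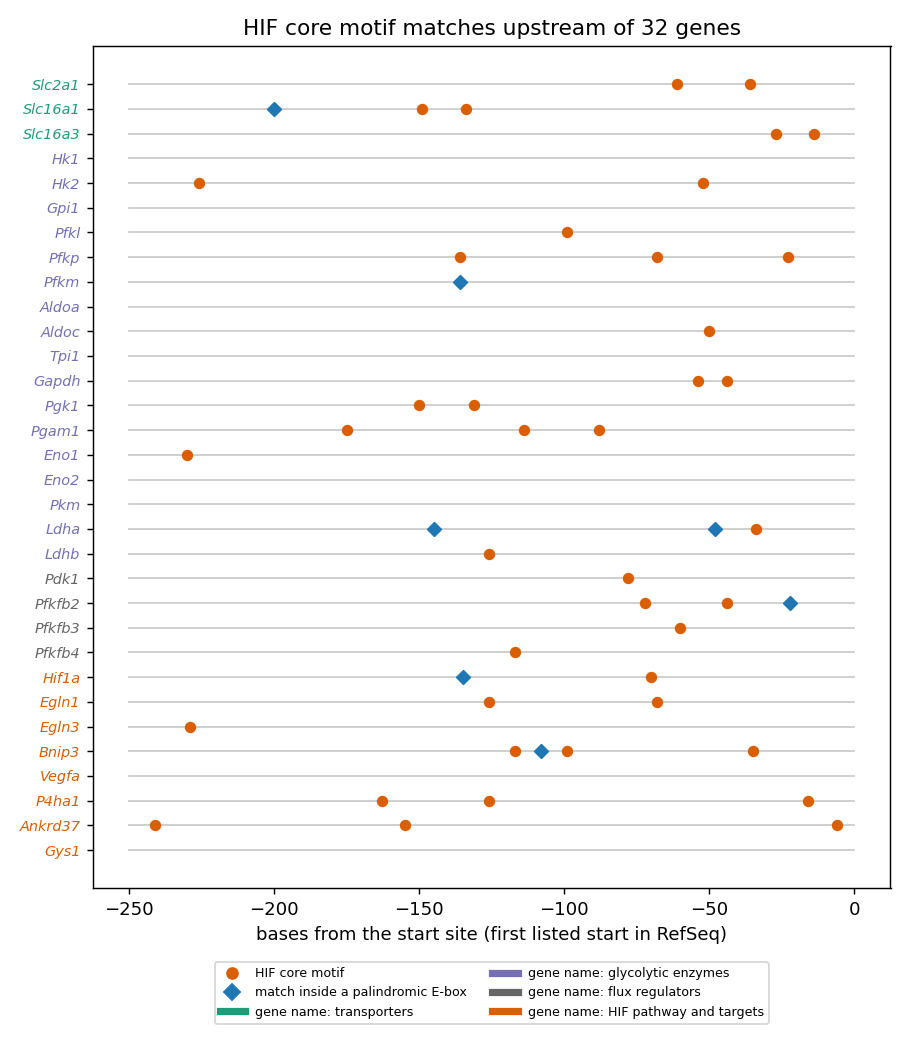
Positions of HIF core motif matches (circles) and of matches inside a palindromic E-box (diamonds) in the 250 bases before the first listed RefSeq start of 32 genes, with bases from the start on the horizontal axis. At least 1 match stands on 24 of the 32 lines, and none on the others, among them Vegfa, Tpi1, Pkm and Gys1.

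The peptide comparison asked how T cells with the same receptor differed after M9 and after K8. With TRP1low, M9 went with higher levels across the pathway: 11 of 33 genes were at least 2-fold higher (7.67% of all genes were) and 0 were lower (7.43%), where 15.1% of all genes were 2-fold apart in either direction. All but Pdk1 and Pfkfb2 had a difference above 0, that is 31 of 33, against 51.8% of all genes. The median difference was 0.70, beside 0.02 over all genes. With TRP1high, 0 of 33 genes were 2-fold apart (9.87% of all genes were), 26 were above 0 (45.8% of all genes) and the median was 0.33, beside -0.02. Among 10047 genes whose mean reached 100 normalized counts, 30 of the 33 included, 8.94% were 2-fold apart for TRP1low and 4.91% for TRP1high. All 4 comparisons draw on the same 4 libraries, so the peptide and receptor differences are not independent of each other.

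**Figure D3:**
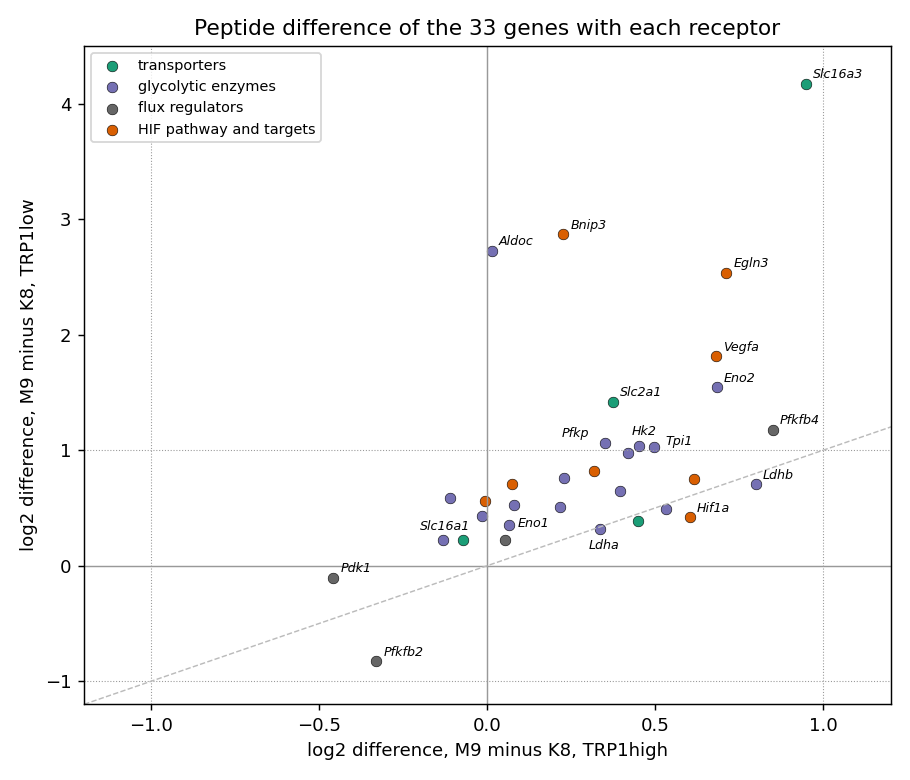
Log2 difference of M9 minus K8 for TRP1high (horizontal) and TRP1low (vertical), 1 point per gene, coloured by role, with dotted lines at 2-fold and a dashed line of equal difference. Slc16a3 (0.95 and 4.17), Bnip3 (0.22 and 2.87), Aldoc (0.01 and 2.73) and Egln3 (0.71 and 2.54) lie far above the dashed line, and no gene lies past the dotted vertical lines.

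Among the transporters, Slc16a3, which encodes MCT4, the exporter of lactate from highly glycolytic cells (chromosome 11, 120948480 to 120960868, mm10), had the widest spread. Its level was 12.23, 13.18, 8.85 and 13.02. The 3 libraries other than TRP1low with K8 lay within 0.95 log2 units, and that library held 337 estimated reads against 4811, 9370 and 7934. Slc16a3 was 18.1-fold higher with M9 than with K8 for TRP1low (16.2 to 20.2) and 1.93-fold higher for TRP1high (1.86 to 2.0). With K8 it was 10.4-fold higher in TRP1high than in TRP1low (9.33 to 11.7), and with M9 1.11-fold (1.08 to 1.15). Slc16a1, which encodes MCT1, a lactate carrier that works in either direction (chromosome 3, 104638668 to 104658462), was at 13.66, 13.59, 13.37 and 13.59. Its 4 libraries spanned 0.28 log2 units. Per kilobase of exon, Slc16a3 made up 23.6%, 38.6%, 3.49% and 35.9% of the transcripts of these 2 carriers.

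The 2 glucose transporters differed from each other. Slc2a1, which encodes GLUT1 (chromosome 4, 119108711 to 119137983), was at 12.60, 12.98, 11.34 and 12.76, lowest in TRP1low with K8. With M9 it was 2.68-fold higher for TRP1low (2.55 to 2.82) and 1.30-fold for TRP1high (1.25 to 1.34). Slc2a3, which encodes the high-affinity transporter GLUT3 (chromosome 6, 122727809 to 122801640), was at 11.47, 11.92, 12.14 and 12.52. Both TRP1low libraries were above both TRP1high libraries, 1.59-fold with K8 and 1.52-fold with M9, whereas Slc2a1 was higher in TRP1high with each peptide. Per kilobase, Slc2a1 was 81.9%, 81.1%, 54.2% and 70.8% of the pair.

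**Figure D4:**
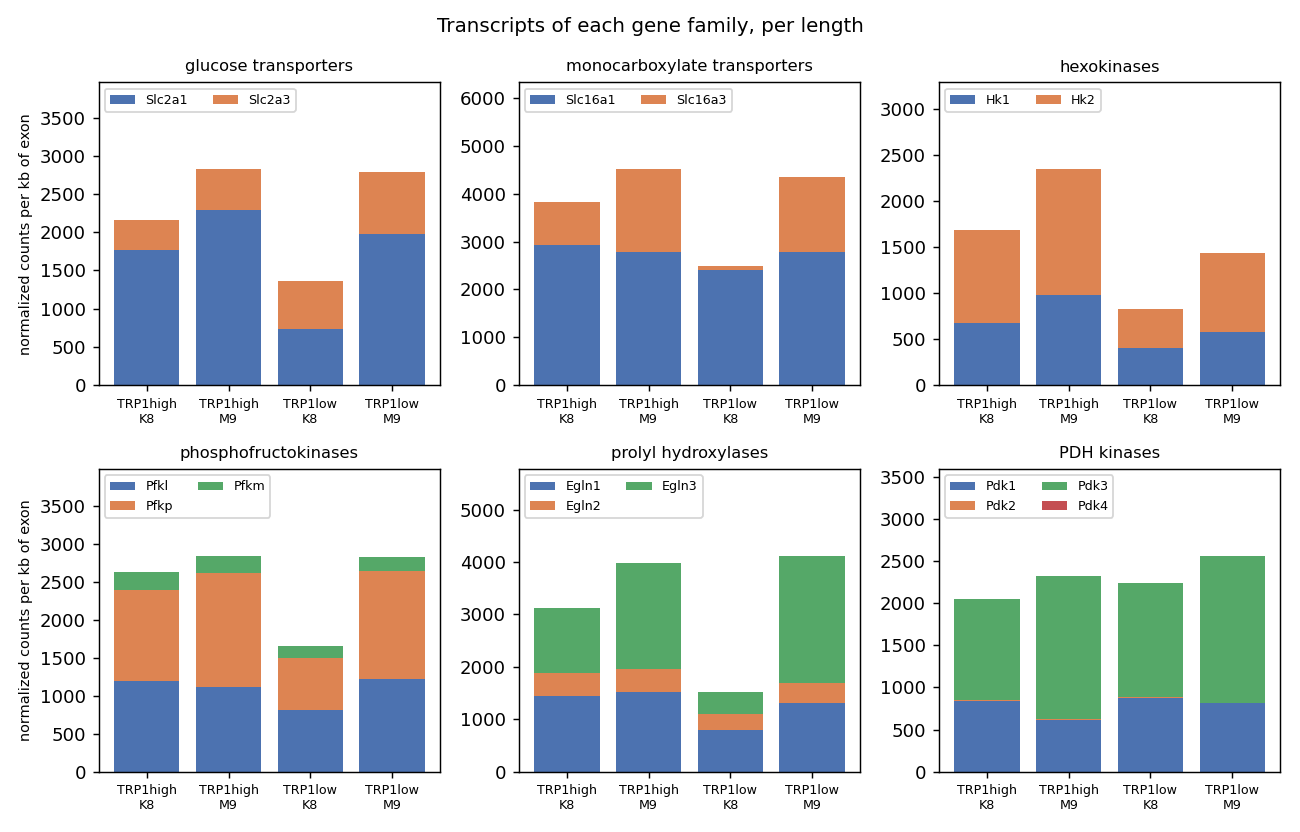
Normalized counts per kilobase of exon for 6 gene families, stacked by gene, in each of the 4 libraries. Slc16a3 is a thin band in TRP1low with K8 (3.49% of its family) and 23.6% to 38.6% elsewhere, and Egln3 is 27.5% of its family there and 39.5% to 59.1% elsewhere.

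All 17 glycolytic enzymes were higher with M9 than with K8 for TRP1low, and 5 by at least 2-fold: Aldoc, Eno2, Hk2, Pfkp and Tpi1. For TRP1high 14 of 17 were higher with M9, by 0.80 log2 units at most, and 0 by 2-fold. Hexokinase traps glucose in the cell by phosphorylation. The inducible form Hk2 (chromosome 6, 82725025 to 82774454) was at 12.54, 12.99, 11.30 and 12.34, and was 2.05-fold higher with M9 for TRP1low (1.94 to 2.16) and 1.37-fold for TRP1high (1.32 to 1.41). The housekeeping form Hk1 differed alike with both receptors, by 0.53 and 0.49, and was 1.67-fold and 1.72-fold higher in TRP1high than in TRP1low with K8 and M9.

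Phosphofructokinase commits the sugar to glycolysis, and its platelet-type gene Pfkp (chromosome 13, 6579768 to 6648777) was at 13.96, 14.31, 13.15 and 14.22. It was 2.09-fold higher with M9 for TRP1low (2.03 to 2.15) and 1.27-fold for TRP1high (1.25 to 1.30). The liver-type gene Pfkl differed by -0.11 and 0.58 and the muscle-type gene Pfkm by -0.13 and 0.22. Per kilobase, Pfkp was 45.1%, 53.1%, 41.1% and 50.2% of the 3, a larger share with M9 than with K8 for both receptors.

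Aldolase cleaves the 6-carbon sugar, and nearly all of its transcript came from Aldoa, at least 99.1% per kilobase in each library. Aldoa was at 16.11, 16.34, 15.34 and 16.10. The brain-type gene Aldoc (chromosome 11, 78322968 to 78327781) was a minor transcript with a far wider spread, at 9.18, 9.19, 4.24 and 6.96. Its estimated reads were 580, 590, 13 and 118, so both TRP1high libraries were nearly equal and both TRP1low libraries were lower. It was 6.93-fold higher with M9 for TRP1low (3.92 to 13.5) and 1.01-fold for TRP1high (0.898 to 1.13). With K8 it was 32.4-fold higher in TRP1high than in TRP1low (18.9 to 61.5), and with M9 4.71-fold (3.86 to 5.80).

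The lower steps handle 3-carbon sugars. Tpi1, triose phosphate isomerase (chromosome 6, 124810586 to 124814296), was at 15.53, 16.03, 14.45 and 15.48 and was 2.04-fold higher with M9 for TRP1low (2.0 to 2.08). Pgk1, phosphoglycerate kinase, which makes the first ATP of the pathway, was at 16.21, 16.63, 15.24 and 16.22 and differed by 0.98 for TRP1low, just under 2-fold. Hk2 (1.04), Tpi1 (1.03) and Pfkp (1.06) lay just over it. Gapdh was at 16.96, 17.36, 16.02 and 16.67. Gpi1, Pgam1 and Pkm, the isomerase, mutase and pyruvate kinase genes, differed by 0.43, 0.51 and 0.53 for TRP1low and by -0.02, 0.22 and 0.08 for TRP1high. Eno2, the neuronal enolase, was barely present, with 15, 25, 3 and 13 estimated reads, and the interval of its 3.38-fold difference for TRP1low ran from 0.913 to 18.2.

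Lactate dehydrogenase differed little between the receptors. Ldha, its muscle-type subunit (chromosome 7, 46841475 to 46855627), was at 17.18, 17.52, 17.26 and 17.57, a span of 0.39 log2 units. It was 1.26-fold higher with M9 for TRP1high (1.25 to 1.27) and 1.24-fold for TRP1low (1.24 to 1.25), and the receptors differed by -0.07 with K8 and -0.05 with M9. Of the 33 genes it had the highest level per kilobase of exon in all 4 libraries, with Gapdh taken without its copies. Ldhb, the heart-type subunit, was at 9.06, 9.86, 8.95 and 9.65 and made up 0.75%, 1.03%, 0.66% and 0.86% of the pair per kilobase. With all genes of a step summed, the peptide difference for TRP1low was 0.75 at hexokinase, 0.88 at phosphofructokinase, 0.76 at aldolase, 1.03 at triose phosphate isomerase, 0.98 at phosphoglycerate kinase, 0.35 at enolase and 0.32 at lactate dehydrogenase.

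Some of these genes have copies nearly identical in sequence, among which reads could be split. Transcripts of 47 genes matched 7 of the enzymes at 98% identity or more over at least 300 bases. Enolase was the one that mattered for a receptor difference. Eno1 (chromosome 4, 150236721 to 150248879) was at 17.02, 17.08, 15.61 and 15.96, which is 2.66-fold higher in TRP1high than in TRP1low with K8 (2.63 to 2.69) and 2.17-fold with M9 (2.15 to 2.19). Its copy Eno1b, 99.5% identical over 1736 bases, went the other way, at 7.35, 6.55, 14.23 and 15.04, while a further copy, Gm4735, was at 7.18, 8.05, 0 and 0. The copies held 0.23%, 0.26%, 27.7% and 34.6% of the summed counts. Summed, enolase 1 differed between receptors by 0.94 with K8 and 0.51 with M9, under 2-fold in both.

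For Gapdh, 39 copies held 58.7%, 53.7%, 58.0% and 57.1% of the summed counts, mainly Gm10359 and Gm12671, which are each identical to Gapdh over 1002 bases. The level of Gapdh is therefore uncertain, but its differences kept their signs when summed: 0.23 for TRP1high and 0.62 for TRP1low between peptides, and 0.97 with K8 and 0.58 with M9 between receptors. For Pgk1 the copies Gm5537 and Pgk1-rs7 held 18.5%, 15.2%, 28.5% and 19.0%, and its summed peptide differences were 0.36 and 0.80. The copies of Pgam1, Gpi1, Ldhb and Pkm held 10.6% at most.

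**Figure D5:**
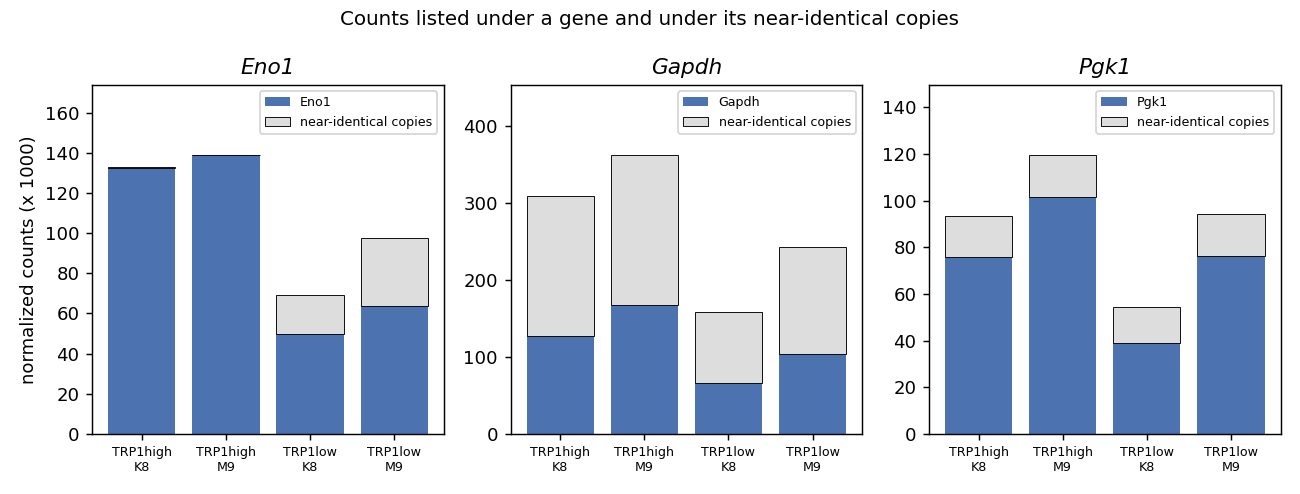
Normalized counts (vertical axis, x 1000) listed under Eno1, Gapdh and Pgk1 (blue) and under their near-identical copies (grey) in each library. The grey part of Eno1 is under 0.3% in both TRP1high libraries and 27.7% and 34.6% in the TRP1low libraries, while for Gapdh it is 53.7% to 58.7% in all 4.

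The flux regulators went their own ways. Pdk1, a kinase that shuts off pyruvate dehydrogenase and so keeps pyruvate out of mitochondria (chromosome 2, 71873224 to 71903858), was at 12.67, 12.22, 12.72 and 12.62, lower with M9 by 1.37-fold for TRP1high and 1.07-fold for TRP1low. The PFKFB enzymes make and break fructose 2,6-bisphosphate, the activator of phosphofructokinase. Pfkfb3, whose kinase activity prevails, stood at 10.48, 10.53, 10.34 and 10.57 and held 71.5% to 76.4% of PFKFB transcript per kilobase. Pfkfb4 (chromosome 9, 108991778 to 109032228) was at 6.16, 7.01, 5.91 and 7.09 and was higher with M9 for both receptors, 1.81-fold for TRP1high (1.34 to 2.44) and 2.28-fold for TRP1low (1.62 to 3.33). Pfkfb2 (chromosome 1, 130689182 to 130729253) was highest in TRP1low with K8 and lowest in TRP1high with M9, at 5.23, 4.90, 6.80 and 5.97, from 37, 29, 81 and 59 estimated reads.

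Of the 8 HIF pathway genes and targets, all were higher with M9 for TRP1low, 3 of them by at least 2-fold (Bnip3, Egln3 and Vegfa), and 7 for TRP1high, 0 by 2-fold. Hif1a itself, the oxygen-regulated subunit (chromosome 12, 73901375 to 73947530), was at 13.38, 13.98, 12.55 and 12.97. Both TRP1high libraries lay above both TRP1low libraries, 1.77-fold with K8 (1.71 to 1.83) and 2.01-fold with M9 (1.96 to 2.07). Its peptide difference was 0.60 for TRP1high and 0.42 for TRP1low, and TRP1low with M9 held less Hif1a than TRP1high with K8. Egln3, Vegfa, P4ha1, Ankrd37 and Gys1 had the reverse order in those libraries. Bnip3 (11.55 in TRP1high with K8 and 11.44 in TRP1low with M9) and Egln1 (12.34 and 12.20) had the same order as Hif1a. HIF-1 alpha is controlled largely as a protein, which was not measured.

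Egln3, which encodes the prolyl hydroxylase PHD3, both a brake on HIF and a HIF target (chromosome 12, 54178981 to 54203860), was at 11.68, 12.39, 10.13 and 12.66. It was 5.80-fold higher with M9 for TRP1low (5.39 to 6.25) and 1.64-fold for TRP1high (1.57 to 1.71), and TRP1low with M9 was the highest library. Egln1, which encodes PHD2, the main oxygen sensor (chromosome 8, 124908587 to 124949324), varied less, at 12.34, 12.42, 11.49 and 12.20. Per kilobase Egln3 was 39.5%, 50.7%, 27.5% and 59.1% of the 3 hydroxylases and Egln1 was 46.3%, 38.2%, 52.5% and 31.8%. Egln3 thus held the largest share in both M9 libraries and Egln1 in both K8 libraries.

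Bnip3, a mitochondrial protein that directs mitochondria to autophagy (chromosome 7, 138890836 to 138909519), was at 11.55, 11.78, 8.57 and 11.44. The 3 other libraries lay within 0.34 log2 units, and TRP1low with K8 held 277 estimated reads against 3013, 3553 and 2652. Bnip3 was 7.33-fold higher with M9 for TRP1low (6.48 to 8.34) and 1.17-fold for TRP1high (1.11 to 1.23). Vegfa, the vascular growth factor (chromosome 17, 46016993 to 46032369), was at 8.85, 9.53, 7.31 and 9.12, and was 3.53-fold higher with M9 for TRP1low (2.88 to 4.36) and 1.60-fold for TRP1high (1.43 to 1.80). The remaining targets differed less. P4ha1, a collagen prolyl hydroxylase subunit, was higher with M9 by 0.32 and 0.82, the ankyrin repeat gene Ankrd37 by 0.61 and 0.75, and Gys1, muscle-type glycogen synthase, differed by -0.01 and 0.56. Ankrd37 was equal in both K8 libraries, at 8.23.

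The receptor comparison asked how TRP1high and TRP1low cells differed with the same peptide. With K8, 10 of 33 genes were at least 2-fold higher in TRP1high and 1, Pfkfb2, was lower (18.9% of all genes were 2-fold apart, 10.6% higher and 8.35% lower). The difference was above 0 for 29 genes, against 49.1% of all genes, and the median was 0.78, beside 0.00. The 10 genes were Aldoc, Bnip3, Egln3, Eno1, Eno2, Hk2, Slc16a3, Slc2a1, Tpi1 and Vegfa. With M9, 3 genes were at least 2-fold higher in TRP1high (Aldoc, Eno1 and Hif1a) and Pfkfb2 was lower (12.9% of all genes were 2-fold apart, 7.37% higher and 5.58% lower), 21 were above 0 (46.9% of all genes) and the median was 0.22, beside -0.03. In the comparisons that leave out TRP1low with K8, then, 0 and 4 of the 33 genes were 2-fold apart, and in those that include it 11 and 11. With the enzymes summed with their near-identical copies, Eno1 was under 2-fold between receptors with each peptide. The receptor counts were then 10 with K8 and 3 with M9. Of genes whose mean reached 100 normalized counts, 13.8% were 2-fold apart between receptors with K8 and 7.98% with M9.

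The peptide differences of the receptors were set against each other as a description, since 4 single libraries give no error for it. For 6 genes they were at least 2-fold apart, each with the larger difference for TRP1low (18.7% of all genes were 2-fold apart, 9.68% with the larger value for TRP1low). Of genes whose mean reached 100 normalized counts, 9.7% were 2-fold apart, 5.31% with the larger value for TRP1low. The gaps were 3.22 for Slc16a3, 2.71 for Aldoc, 2.65 for Bnip3, 1.82 for Egln3, 1.13 for Vegfa and 1.05 for Slc2a1. The median gap over the 33 genes was 0.45, beside 0.06 over all genes. For 27 of the 33 it was above 0, but the share of all genes above 0 was not computed for the gap. No gene was 2-fold apart in the same direction for both receptors (3.15% of all genes were). This was given already, as 0 of the 33 were 2-fold apart for TRP1high, and is no further result.

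Related genes outside the list were read from 7 further lists. Of 28 other HIF targets measured, 9 were at least 2-fold higher with M9 for TRP1low (7.67% of all genes) and 0 lower (7.43%), with 26 above 0 (51.8%) and a median of 0.61. For TRP1high 4 were higher and 2 lower, where 9.87% of all genes were 2-fold apart. Nos2, inducible nitric oxide synthase, was at 4.60, 7.65, 5.04 and 6.37, and Anxa2, a membrane-binding annexin, at 11.31, 12.39, 8.96 and 10.90. Both were at least 2-fold higher with M9 for each receptor. Nos2 was low in both K8 libraries, whereas Slc16a3 and Bnip3 were low in TRP1low with K8 alone. P4ha2, a collagen prolyl hydroxylase subunit like P4ha1, was also lowest in TRP1low with K8, at 7.82, 8.54, 5.13 and 7.94.

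Of 12 genes that control HIF, 1 was 2-fold apart, Cited4, in each of the 4 comparisons, from 1, 19, 13 and 5 estimated reads. Of all genes, 9.87% and 15.1% were 2-fold apart between peptides for TRP1high and TRP1low. Between receptors 18.9% were with K8 and 12.9% with M9. A count of 1 in 12 is small and not far from those shares. Vhl, the ubiquitin ligase subunit that binds hydroxylated HIF, was at 9.79, 10.17, 9.75 and 9.72, and Arnt, the partner subunit of HIF, at 10.53, 10.32, 10.75 and 10.23. Myc, a transcription factor that drives glycolytic genes after T cell activation, was at 13.76, 13.90, 12.78 and 13.53, lowest in TRP1low with K8. Txnip, which restrains glucose uptake, was at 11.40, 10.74, 12.08 and 10.43, highest in that library, and was 3.14-fold lower with M9 for TRP1low and 1.58-fold for TRP1high. Mxd4, a MYC antagonist, was at 7.28, 7.95, 9.56 and 6.80.

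Other branches of glucose use were read in the same way, beside shares of all genes 2-fold apart of 9.87% between peptides for TRP1high and 15.1% for TRP1low. Of 7 pentose phosphate genes 0 were 2-fold apart in any of the 4 comparisons, and their median peptide difference was 0.01 for TRP1high and 0.12 for TRP1low. Of 13 genes for the entry of pyruvate into mitochondria 0 were 2-fold apart between peptides for TRP1high, and 2, Pdk2 and Pdk4, were lower with M9 for TRP1low. These counts are small and near those shares. Pdk3 held more of the pyruvate dehydrogenase kinase transcript per kilobase than Pdk1 in every library, at 58.4%, 73.2%, 60.3% and 68.1%. Of 16 other glycolysis genes 3 were 2-fold apart for TRP1high, all lower with M9, and 2 for TRP1low, both higher (7.67% of all genes).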

How the data were processed

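RNA sequencing of sorted mouse T cells gave 4 libraries, 1 per combination of receptor and peptide, grouped by sample title. The authors deposited log2 normalized counts, per the file headers. Salmon 0.8.2, DESeq2 1.20.0 and the build mm10 are named per the submitters' processing notes. How these tools were set is not given in the sources used here. Values were read as log2(normalized count + 1), because, once the logarithm was undone, low values piled up at multiples of 1 step in each library. That step, the worth of 1 read, was 0.998, 0.989, 1.37 and 1.05 normalized counts, and dividing by it gave the estimated reads. Only 56.2% to 56.4% of low values lay within 0.01 of a whole read, so no count test was run. A count of 0 allows up to 3 reads.

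Differences were taken between deposited log2 values for the 16102 genes whose mean reached 1 normalized count, and called at 2-fold if either library of the pair reached 10 normalized counts. No library had a replicate in its group and no test between groups was made. Intervals are exact (Clopper-Pearson) for ratios and Wilson for shares, at 95%, and speak to counting error alone, as reads without molecular identifiers are not independent molecules. They used estimated reads rounded to whole numbers, and do not cover how reads were assigned among near-identical copies. Per-kilobase levels used the union of exons of GENCODE M21, which also gave positions (mm10) and held 16196 (99.1%) of the row names. Copies were found with BLAST+ 2.17.0 among GENCODE transcripts. Promoter windows came from the RefSeq table of GRCm38.p6. In 38 of 48 windows the bases after the start were found in a transcript of the gene. Python 3.11.15 with numpy 2.4.6, pandas 2.3.3, scipy 1.17.1 and matplotlib 3.10.9 was used. All 33 genes are described. Genes of the 7 further lists (other glycolysis, other HIF targets, HIF regulators, pyruvate entry, pentose phosphate, glucose sensing and MYC, glycogen) are named if 2-fold apart the same way for both receptors, if among the 3 largest differences of their list in a comparison, or if on a short list of regulators. Some genes of these lists are not reported here. Marker lists covered T, B, myeloid or dendritic, erythroid and resting T cells. The 33 genes, the lists and the rules were chosen with earlier results of these data known. Alternatives were other added counts, 2 other scalings, other minimum counts and another gene length.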

Additional observations from a re-analysis of the deposited data

Results flagged for a closer look

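5 genes of the further lists went 2-fold or more in opposite directions in matched comparisons, which draws the eye to them. The share of all genes that did so was not computed, so their number is no result about these lists. None of the 33 genes did. For the peptides this was given already, as 0 of the 33 were 2-fold apart for TRP1high. The differences between the comparisons were not tested, since each rests on single libraries. Stc2, a secreted glycoprotein, was lower with M9 for TRP1high (-1.51) and higher for TRP1low (3.24), with 204, 72, 2 and 31 estimated reads in TRP1high K8, TRP1high M9, TRP1low K8 and TRP1low M9. Car9, carbonic anhydrase 9, differed by -1.12 and 1.95, with 22, 10, 2 and 13 reads. Cited4, a HIF coregulator, differed by 3.31 and -1.59 between peptides for TRP1high and TRP1low, and by -3.23 with K8 and 1.66 with M9 between TRP1high and TRP1low, with 1, 19, 13 and 5 reads. Mxd4 was lower in TRP1high than in TRP1low with K8 (-2.28) and higher with M9 (1.14), with 155, 248, 550 and 106 reads. Slc16a7, the carrier MCT2, differed between receptors by 1.08 with K8 and -1.54 with M9, with 25, 4, 8 and 13 reads. Mxd4 is the one of these with over 100 reads in every library.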

How the results depend on the processing

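All counts and medians of the 33 genes kept their direction and stayed within 1.5 times under 66 alternatives. With the longest transcript as length, the Slc16a3 share of its family was 27.5%, 43.5%, 4.25% and 40.8% in the order above. Of 226 alternatives for 34 single differences of the genes called, 214 kept side and direction, 10 fell below 2-fold or the minimum count, 2 came above and 0 reversed. Those lost were Eno1 between receptors when summed with its copies (an alternative chosen after seeing the data), Eno2 and the receptor difference of Pfkfb2 with M9 (-0.89) with 10 added or a minimum of 100, and Hk2 (0.97) and Tpi1 (0.97) for TRP1low with equal totals. Pgk1 came to 1.01 between receptors with K8 under median scaling, and the gap of Eno2 to 1.02 with 0.1 added. Leaving out a library leaves a comparison with no value. No paired analysis was possible because each group holds 1 library and no test was made. At this depth Eno2, Pfkfb2 and Aldoc in TRP1low rest on few reads.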

Other observations

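Glycogen genes, which were not described above, included 3 of 9 measured members that were at least 2-fold higher in TRP1high than in TRP1low with K8 (10.6% of all genes were). Pygm, muscle glycogen phosphorylase, was at 5.86, 5.04, 2.42 and 4.65 (log2) in TRP1high K8, TRP1high M9, TRP1low K8 and TRP1low M9. Ppp1r3b, a glycogen-targeting subunit of protein phosphatase 1, was at 7.97, 8.64, 6.78 and 8.73. Pygl, liver glycogen phosphorylase, was at 5.43, 6.0, 0 and 2.70, with both TRP1high libraries above both TRP1low libraries and no read in TRP1low with K8. The median peptide difference of the 9 genes was 0.11 for TRP1high and 0.21 for TRP1low, beside -0.02 and 0.02 over all genes.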
